A study of Homo sapiens with 60 samples.

Results

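HepG2 cells, an established human hepatocellular carcinoma line, were exposed for 24 h either to a Poria Cocos water extract at 500 µg/mL or to wortmannin at 10 µM, and the gene expression of both treatments was set side by side. The 6 libraries of the comparison, 3 for each treatment, were chosen by the treatment named in the sample labels and are 6 of the 60 libraries of the series. The other libraries of the series received a vehicle or extracts of several medicinal plants, and all were sequenced as mRNA. Wortmannin is the positive control according to the series description. The 3 vehicle libraries served as a reference only, as did 3 libraries of the same Poria extract at 20 µg/mL. By the sample labels the vehicle was DMSO at 0.1%, by the series description 2%, and the labels of the treated libraries give no DMSO. All 4 groups share the cell line and the 24 h of exposure. HepG2 is a single tumour-derived line, so the groups hold no variation between donors. Whether the 3 libraries of each group are separate cultures is not stated. The p-values below therefore rest on a spread between libraries within groups that may be technical. This spread was estimated over all 60 libraries of the series in 20 groups.

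Wortmannin is a covalent inhibitor of phosphoinositide 3-kinase (PI3K), the lipid kinase that carries the signal from the insulin and IGF receptors to AKT. AKT phosphorylates FOXO transcription factors and keeps them out of the nucleus. Loss of AKT activity lets FOXO raise insulin-repressed liver genes such as IGFBP1, G6PC1 and PCK1. The same axis feeds mTORC1, which holds the lysosomal regulator TFEB in the cytoplasm, and it drives entry into the cell cycle. Poria Cocos is a wood-decay fungus used in East Asian medicine, and its water extract is a mixture of polysaccharides and smaller molecules.

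Library totals lay between 22.851 and 32.059 M counts over the 12 libraries of the 4 groups, so that 3 counts correspond to 0.0936 to 0.1313 CPM, the unit of the levels below, in which every library is scaled to the same total. Mitochondrially encoded genes held 12.59% ± 0.871 (SD, n = 3) of the counts with Poria at 500 µg/mL and 12.4% ± 1.35 (SD, n = 3) with wortmannin. All 8 hepatocyte markers were detected in every group, with summed levels of 59000 to 59100 CPM with Poria and 65200 to 68200 CPM with wortmannin. Of 12 blood cell markers, PTPRC, HBB and MS4A1 were at 0 in all 4 groups, and LYZ made up nearly the whole sum, which was 2100 to 2620 CPM with Poria, 2090 to 2410 CPM with wortmannin and 1340 to 1500 CPM with vehicle. Of 12 fibroblast and stellate cell markers, COL1A2 and DCN were at 0 in all 4 groups, and the sum was 67.4 to 71.3 CPM with Poria and 77.0 to 84.7 CPM with wortmannin. The part of these markers in the results below was not tested. The table columns are numbered with a leading 2 for Poria, 1 for wortmannin and A1 for vehicle, and no label says what that number means. A difference between such sets cannot be told apart from the difference between the treatments, whereas Poria at 500 and at 20 µg/mL carry the same leading number.

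The treatments separated most genes. Of 16093 genes tested, 9654 (60%) differed between Poria and wortmannin at an adjusted p of 0.05 (edgeR's quasi-likelihood test with Benjamini-Hochberg adjustment). Of all genes tested, 31.7% were higher with Poria and 28.2% were lower. The CPM of the 3 Poria and the 3 wortmannin libraries did not overlap for 10393 genes (64.6%). A lack of overlap between these groups was thus common to most genes. A difference of at least 2-fold was found for 1484 genes (9.22%), of which 458 were higher with Poria (2.85%) and 1026 lower (6.38%). Against vehicle, wortmannin changed 7456 genes (46.3%) and Poria changed 7659 (47.6%), and these counts share the 3 vehicle libraries. Rises made up 22.4% of all genes and falls 24.0% with wortmannin, and 23.9% and 23.7% with Poria. Changes of at least 2-fold were found in 3.52% of all genes with wortmannin (2.21% up, 1.32% down) and in 5.61% with Poria (2.62% up, 2.99% down). Against the 20 µg/mL dose, Poria at 500 µg/mL changed 6995 genes (43.5%; at least 2-fold 4.33%, of which 2.17% up and 2.16% down), and this contrast has no library in common with wortmannin against vehicle. The median log2 difference over all genes was 0.00 between the treatments, 0.01 for wortmannin against vehicle and −0.01 between the Poria doses.

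The shared and the opposing genes were counted from those 2 contrasts without a common library. Both called 4092 genes, which is 54.9% of the wortmannin list and 58.5% of the Poria list, where 43.5% and 46.3% of all genes were called in the other contrast. Of these, 1040 rose in both (13.9% of the wortmannin list, 14.9% of the Poria list) and 1104 fell in both (14.8% and 15.8%). Another 965 rose with wortmannin and fell between the Poria doses (12.9% and 13.8%). A further 983 fell with wortmannin and rose between the Poria doses (13.2% and 14.1%). None of these counts required the same direction for Poria against vehicle. The direct comparison called 963 of the 965 and all 983 of these opposing genes. It uses the same Poria and wortmannin libraries that placed them there, so this count is largely set by the choice of genes. It also called 624 of the 1040 shared rises and 668 of the 1104 shared falls, which moved the same way by different amounts. In all, 48 genes moved at least 2-fold the same way in both contrasts and in Poria against vehicle. With the low-count filter set at a mean of 1 CPM there were 20. Of the 48, 10 also had a 95% interval of the Poria to wortmannin difference within 1.5-fold either way.

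**Figure D1:**
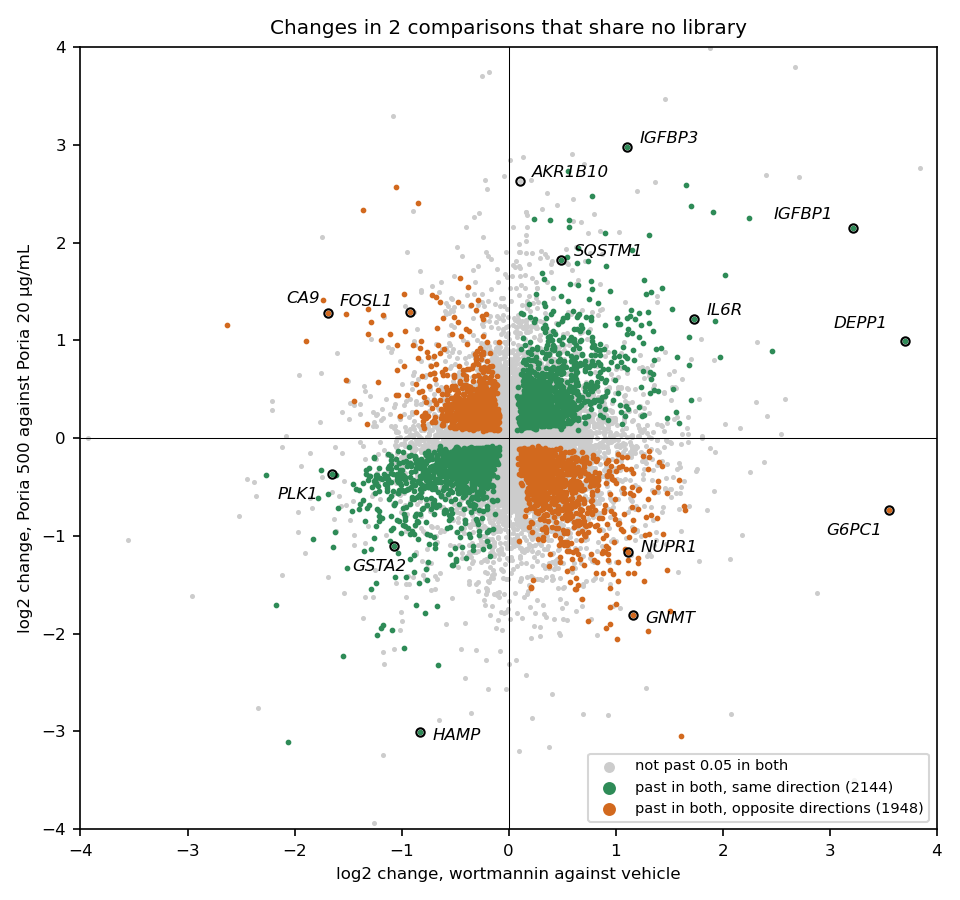
Each point is 1 gene, with the log2 change of wortmannin against vehicle on the horizontal axis and the log2 change of Poria at 500 against 20 µg/mL on the vertical axis. Among genes past the threshold in both, 1040 rose and 1104 fell in both, while 965 and 983 lie in the quadrants of opposite direction, and 46 genes fall outside the plotted range.

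IGFBP1 was high with both treatments, and the direct comparison did not call it. The gene lies at chr7:45888357-45893668 of GRCh38 and encodes a secreted binding protein of the insulin-like growth factors that insulin represses in liver. It was at 114, 127 and 148 CPM with vehicle, at 1150, 1120 and 1300 CPM with wortmannin and at 884, 1240 and 1130 CPM with Poria. The wortmannin and Poria libraries overlapped, and both groups lay above every vehicle library. The log2 difference between Poria and wortmannin was −0.04, with a 95% interval of −0.37 to 0.28 and an adjusted p of 0.838. Wortmannin raised IGFBP1 9.28-fold over vehicle (log2 3.21 ± 0.18 SE, adjusted p = 5.18e-21) and Poria raised it 9.01-fold (log2 3.17 ± 0.18, adjusted p = 1.04e-20). The 20 µg/mL dose stood at 190, 301 and 283 CPM, below all libraries of the 500 µg/mL dose (log2 2.15 ± 0.17 between the doses, adjusted p = 3.33e-15).

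Other genes of the IGF axis differed in the size of their changes. With IGFBP1, 4 of 14 measured genes of this list were called up in both contrasts without a common library. Over all 16093 genes tested, 1040 were. In opposite directions 0 of the list were called, and over all genes 965 and 983. Of 14 measured genes of 18 listed, 4 were higher with Poria than with wortmannin and 3 were lower, where 31.7% and 28.2% of all genes did so. IGFBP3, the main serum carrier of IGF and a neighbour of IGFBP1 on chromosome 7 (chr7:45912245-45921874), was at 1.97, 1.75 and 2.01 CPM with wortmannin and at 7.22, 10.7 and 9.76 CPM with Poria. The groups did not overlap, and the log2 difference was 2.36 ± 0.16 (adjusted p = 3.96e-18). IGFBP3 rose with both treatments, by log2 1.11 with wortmannin against vehicle and by 2.98 between the Poria doses. IGFBP2, another IGF carrier, rose by log2 1.11 in each of those contrasts. Its libraries were at 22.9, 20.3 and 23.6 CPM with wortmannin and at 17.2, 18.1 and 17.7 CPM with Poria, and the log2 difference of −0.24 ± 0.09 (adjusted p = 0.0125) was no longer called without wortmannin replicate 3 (adjusted p = 0.0617). IGF1R, the type 1 IGF receptor, was at 118, 115 and 119 CPM with wortmannin against 67.4, 66.5 and 63.7 CPM with Poria, a log2 difference of −0.74 ± 0.08 (adjusted p = 1.25e-11). It rose with wortmannin (log2 0.70), and between the Poria doses the value was −0.09 (adjusted p = 0.394). Also higher with Poria were IGFBP6 (log2 0.84), IGFBP4 (0.41) and STC2 (0.54), which encodes an inhibitor of IGFBP-cleaving proteases. IGFALS, the acid-labile subunit that binds the IGF carrier complex, was lower (log2 −0.80, adjusted p = 0.0202), a call that was lost without Poria replicate 1 or wortmannin replicate 2 or 3 (adjusted p = 0.0964, 0.0579 and 0.135).

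**Figure D2:**
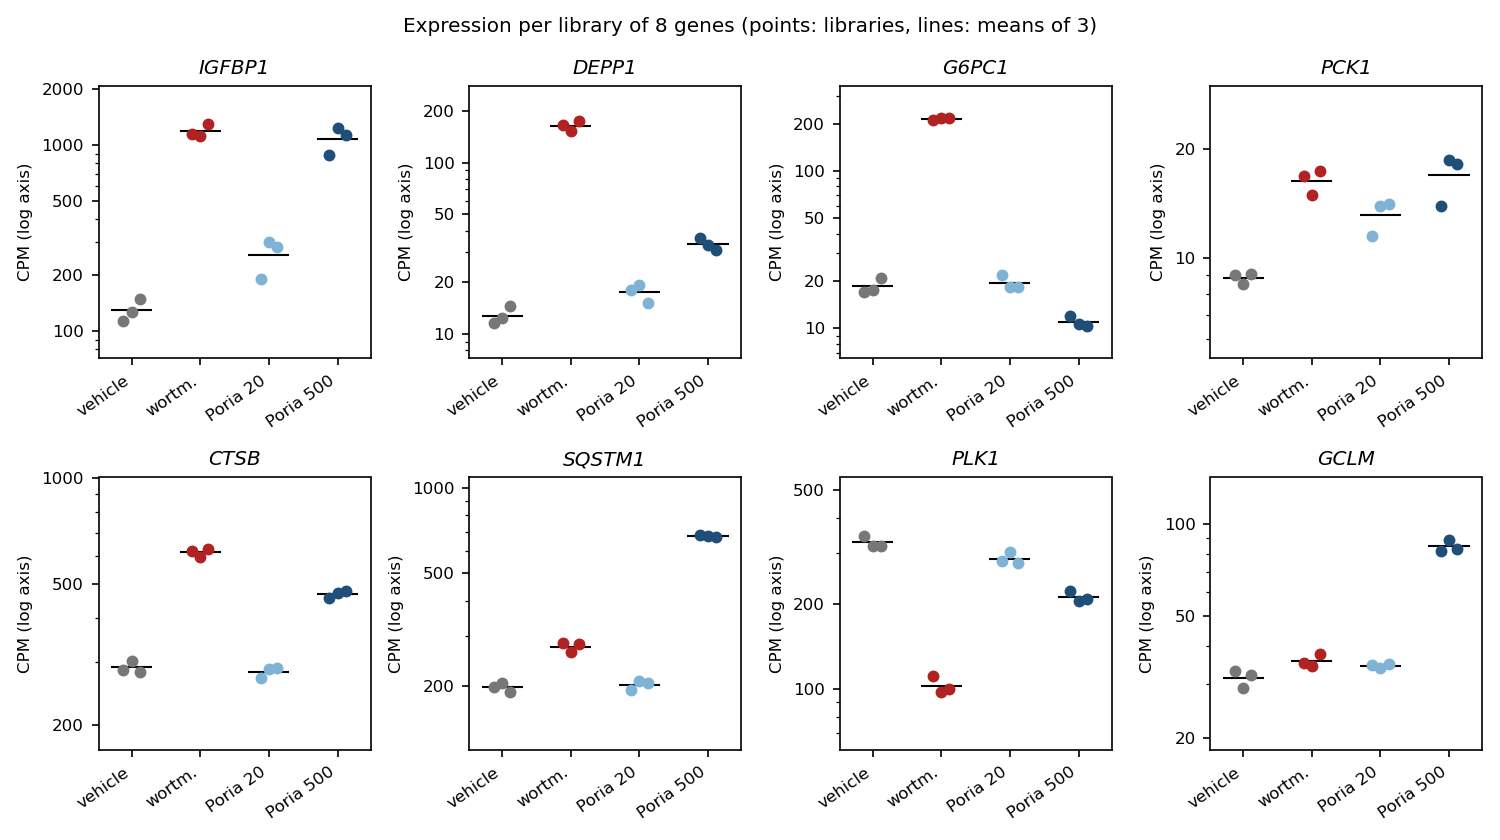
The plot shows CPM in each library on a log axis for 8 genes with vehicle, wortmannin, Poria at 20 µg/mL and Poria at 500 µg/mL, with points for the 3 libraries of a group and lines at their mean. IGFBP1 stands equally high with wortmannin and with Poria at 500 µg/mL, whereas G6PC1 and DEPP1 are high with wortmannin, SQSTM1 and GCLM are high with Poria, and PLK1 is lowest with wortmannin.

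Other FOXO and gluconeogenesis targets separated the treatments strongly. G6PC1 encodes the liver enzyme of the last step of glucose release and lies at chr17:42900797-42913369. It was at 17.1, 17.5 and 21 CPM with vehicle, at 211, 217 and 217 CPM with wortmannin and at 12, 10.7 and 10.3 CPM with Poria. Wortmannin raised G6PC1 11.7-fold and Poria left it below vehicle, so that the direct difference was 18.3-fold (log2 −4.20 ± 0.09, adjusted p = 9.37e-38). It fell by 0.74 on the log2 scale between the Poria doses (adjusted p = 1.92e-08). DEPP1, a FOXO-induced regulator of autophagy at chr10:44970981-44978810, was at 11.5, 12.3 and 14.5 CPM with vehicle, at 165, 153 and 175 CPM with wortmannin and at 36.2, 32.9 and 30.8 CPM with Poria. It rose with both treatments, 13-fold with wortmannin and 2.81-fold with Poria over vehicle, and the direct log2 difference was −2.21 ± 0.09 (adjusted p = 2.3e-27). PCK1, the cytosolic enzyme that commits oxaloacetate to gluconeogenesis, was at 16.8, 14.9 and 17.4 CPM with wortmannin and at 13.9, 18.6 and 18.2 CPM with Poria, against 9.02, 8.5 and 9.04 CPM with vehicle. The treated groups overlapped, with a log2 difference of 0.13 (95% interval −0.06 to 0.33, adjusted p = 0.235) that passed without Poria replicate 1 (log2 0.26, adjusted p = 0.0231).

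Over this list, 14 of 21 measured genes were lower with Poria than with wortmannin and 3 were higher (28.2% and 31.7% of all genes). The median log2 difference was −0.58. Wortmannin raised 15 of them over vehicle (background 22.4%), whereas between the Poria doses 8 rose and 10 fell (background 22.3% and 21.2%). KLF15, a fasting-induced regulator of amino acid breakdown, differed by log2 −1.56. PIK3IP1, a membrane inhibitor of PI3K, differed by −1.53, and the mitochondrial PCK2 by −1.07. All 3 rose with wortmannin and fell between the Poria doses, although the fall of PIK3IP1 was lost without Poria replicate 1 (adjusted p = 0.102). The genes higher with Poria were TRIB1 (log2 1.15), CITED2 (0.79) and BNIP3 (0.53). TXNIP, an inhibitor of glucose uptake, had a log2 difference of 0.06 (95% interval −0.03 to 0.15, adjusted p = 0.258), which passed without Poria replicate 1 (log2 0.13, adjusted p = 0.0186). CAT, which encodes catalase, had a difference of −0.09 (adjusted p = 0.0677), which passed without Poria replicate 3 (log2 −0.14, adjusted p = 0.00715).

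The promoter of DEPP1 is shown because this gene rose with both treatments and has a FOXO motif. The 250 bases upstream of its start (RefSeq, GRCh38.p14, chr10:44978810-44979059, minus strand) hold 1 match, printed in capitals as the reverse complement of TGTTTAC, 180 bases before the start.
DEPP1: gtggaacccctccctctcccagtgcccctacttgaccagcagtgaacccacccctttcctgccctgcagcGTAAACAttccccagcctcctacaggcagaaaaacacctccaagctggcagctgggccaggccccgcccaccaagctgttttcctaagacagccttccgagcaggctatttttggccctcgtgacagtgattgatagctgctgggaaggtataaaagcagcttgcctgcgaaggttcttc
Searched on both strands, TGTTTAC was present in 2 of 20 windows of the FOXO list (10.0%) and 3 of 14 windows of the IGF axis (21.4%), against 2.98% of 27305 windows of the same length. The insulin response core CAAAACA was present in 1 of 20 windows of the FOXO list (5.0%) and in 0 of 14 of the IGF axis, against 4.34% of all windows. IGFBP1 and PCK1 had no window in this RefSeq table.

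The components of the insulin receptor and PI3K pathway were themselves lower with Poria than with wortmannin in 17 of 34 measured genes and higher in 8 (median log2 −0.16), against 28.2% and 31.7% of all genes. Wortmannin raised 21 of them over vehicle (22.4% of all genes), and between the Poria doses 10 rose and 9 fell (22.3% and 21.2%). DEPTOR, an inhibitor within the mTOR complexes, was at 1.53, 1.71 and 1.12 CPM with wortmannin and at 0.289, 0.16 and 0.35 CPM with Poria. The groups did not overlap (log2 −2.35 ± 0.33, adjusted p = 2.51e-08). DEPTOR rose with wortmannin (log2 1.01) and fell by 1.70 between the Poria doses. IRS2, the insulin receptor substrate that FOXO induces, was at 1.73, 1.54 and 1.93 CPM with wortmannin and at 1.01, 1.2 and 1.05 CPM with Poria, with a log2 difference of −0.58 (95% interval −1.11 to −0.05 before adjustment, adjusted p = 0.0551). PIK3R2, a regulatory subunit of PI3K, FOXO4 and SESN3, an inhibitor of mTORC1, were lower by log2 −0.67, −0.66 and −0.78. GSK3B, a kinase that AKT inhibits, and RPTOR, the scaffold of mTORC1, had differences of 0.03 and 0.02, with adjusted p of 0.701 and 0.805.

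More lysosomal genes rose than fell with each treatment, and many were not called. Of 41 measured genes for lysosomal enzymes and membrane proteins, wortmannin raised 28 over vehicle and lowered 3 (CTSC, GLA and PPT1). Of all genes, 22.4% rose and 24.0% fell with wortmannin. In this list 10 were not called, and the median log2 change was 0.27. Between the Poria doses 21 rose and 3 fell (NAGLU, MANBA and CLN3), against 22.3% and 21.2% of all genes. Here 17 were not called, and the median was 0.14. Against vehicle Poria raised 18 and lowered 5 (23.9% and 23.7% of all genes), with a median of 0.06. In wortmannin against vehicle and between the Poria doses, 14 of the 41 rose in both and 5 moved in opposite directions. Of all 16093 genes tested, 1040 rose in both, and 965 and 983 moved in opposite directions. Directly, 19 were lower with Poria than with wortmannin, where 28.2% of all genes were, and 11 were higher, where 31.7% of all genes were.

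CTSB, the cysteine protease cathepsin B, at chr8:11842524-11869448, was at 286, 303 and 282 CPM with vehicle, at 622, 598 and 628 CPM with wortmannin and at 457, 473 and 478 CPM with Poria. The 3 groups did not overlap. It rose 2.15-fold with wortmannin and 1.74-fold with Poria, and the direct log2 difference was −0.30 ± 0.04 (adjusted p = 4.3e-09). The Poria dose contrast gave log2 0.81 ± 0.04 (adjusted p = 5.57e-23). CTSD, the aspartic protease cathepsin D, rose with wortmannin (log2 0.35) and had 0.06 between the Poria doses (adjusted p = 0.404). It was at 579, 512 and 560 CPM with wortmannin and at 381, 393 and 371 CPM with Poria (log2 −0.44 ± 0.05, adjusted p = 3.81e-10).

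SMPD1, acid sphingomyelinase, and ARSA, arylsulfatase A, also rose with wortmannin and were not called between the Poria doses. SMPD1 was at 30.5, 28.9 and 30.9 CPM with wortmannin and at 15.3, 13.6 and 14.6 CPM with Poria (log2 −0.96 ± 0.06, adjusted p = 3.07e-18), and ARSA differed by −0.82. TPP1, a tripeptidyl peptidase, differed by −0.65. GLA, alpha-galactosidase A at chrX:101397803-101408012, went the other way. It was at 27.7, 25.4 and 27.1 CPM with vehicle, at 15.8, 16.2 and 19.4 CPM with wortmannin and at 41.5, 39.5 and 43 CPM with Poria, with no overlap among the groups (direct log2 1.36 ± 0.07, adjusted p = 1.03e-23). PSAP, the precursor of the saposins, rose by log2 0.19 with wortmannin and 0.20 between the Poria doses, and its direct difference was 0.03 (95% interval −0.07 to 0.13, adjusted p = 0.638). LAMP1, the main lysosomal membrane glycoprotein, was at 216, 224 and 228 CPM with wortmannin and 237, 249 and 234 CPM with Poria (log2 0.20 ± 0.04, adjusted p = 0.000151). The value for LAMP1 with wortmannin against vehicle was −0.05 (adjusted p = 0.389), and its rise of 0.14 between the Poria doses was lost without replicate 2 of either dose (adjusted p = 0.102 and 0.0645).

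**Figure D3:**
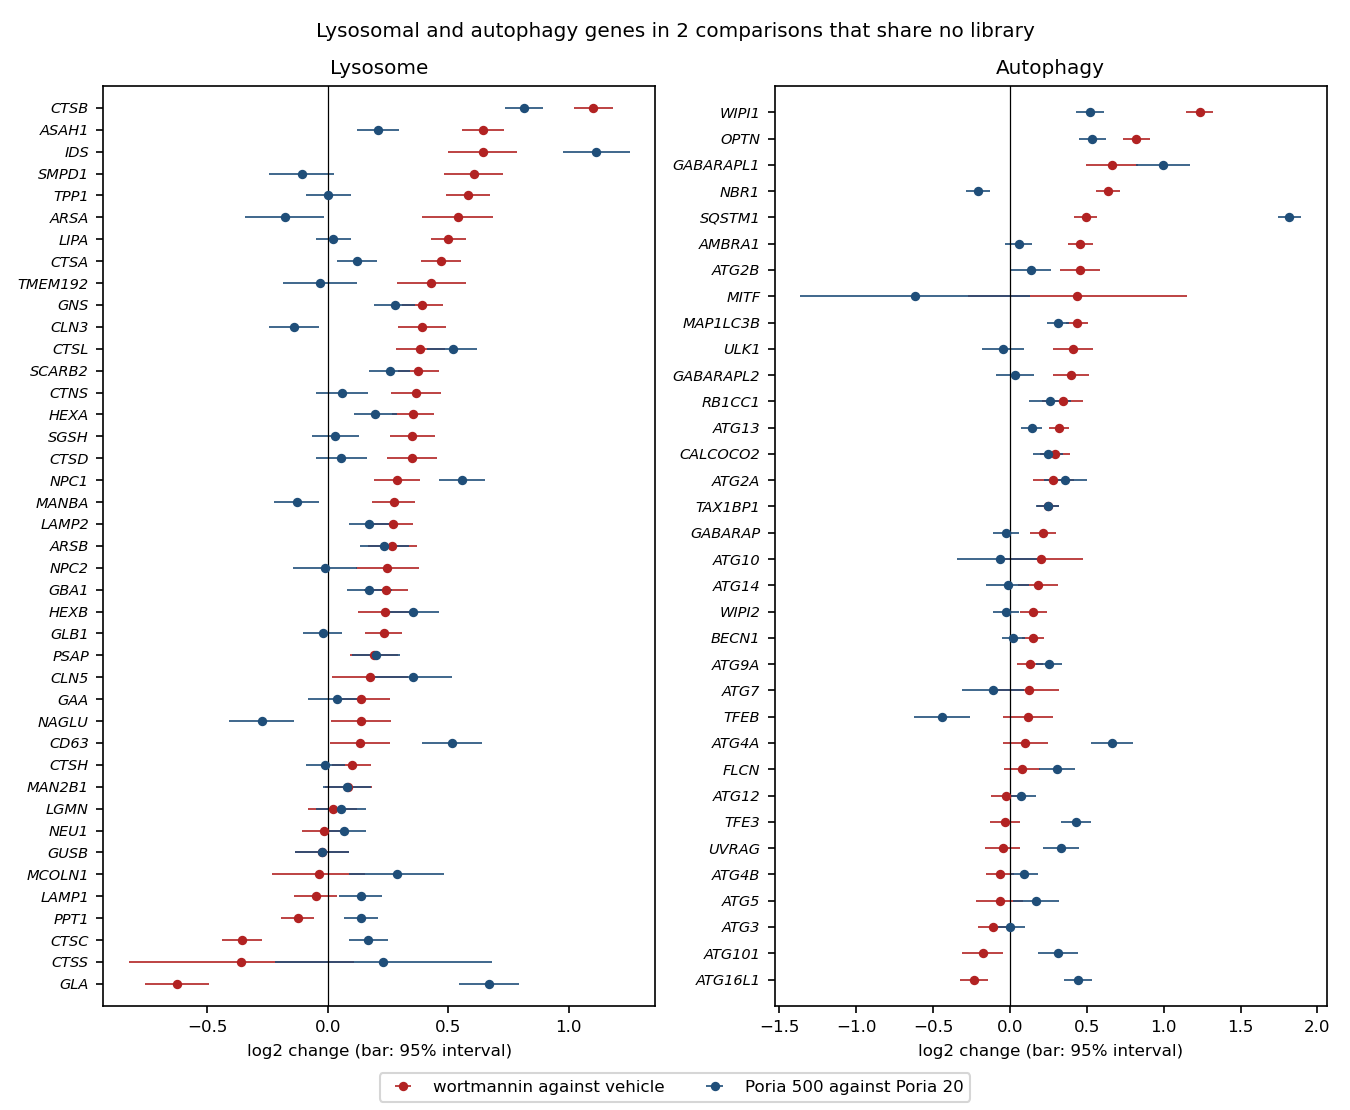
Points give the log2 change of each measured lysosome and autophagy gene, in red for wortmannin against vehicle and in blue for Poria at 500 against 20 µg/mL, with bars for the 95% interval. Most points of both colours lie to the right of 0, while SQSTM1 is far to the right in blue and CTSB and WIPI1 are farther right in red.

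The V-ATPase, the proton pump that acidifies lysosomes, was the group of this set with the smallest differences. Wortmannin raised 9 of its 16 measured genes and lowered 0 (22.4% and 24.0% of all genes). Between the Poria doses 10 rose and 0 fell (22.3% and 21.2%). In both contrasts 6 of the 16 rose, against 1040 of all 16093 genes tested. Directly, ATP6V1D (log2 0.38) and ATP6V0B (0.24) were higher with Poria, and ATP6AP1 (−0.24), ATP6V0C (−0.20) and ATP6V1F (−0.18) were lower. The call for ATP6V0B was lost without Poria replicate 2 (adjusted p = 0.0718), and that for ATP6V0C without Poria replicate 2 or 3 or wortmannin replicate 1 (adjusted p = 0.068, 0.0616 and 0.0874). ATP6V1C1 and the accessory subunit ATP6AP2 had differences of 0.01 and −0.01 (adjusted p = 0.778 and 0.913).

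Of 34 measured autophagy genes, 20 rose and 2 fell with wortmannin (22.4% and 24.0% of all genes), with 12 not called. Between the Poria doses 17 rose and 2 fell (22.3% and 21.2% of all genes), with 15 not called. In both contrasts 11 of the 34 rose, against 1040 of all 16093 genes tested. The genes that fell were ATG101 and ATG16L1 with wortmannin and NBR1 and TFEB between the doses. Directly, 9 were higher with Poria and 14 were lower (31.7% and 28.2% of all genes), with a median log2 difference of −0.005, whose sign turned with the scaling (0.007 with DESeq2 size factors). SQSTM1 encodes p62, the receptor that binds ubiquitinated cargo and the NRF2 inhibitor KEAP1, and lies at chr5:179806398-179838078. It was at 199, 205 and 191 CPM with vehicle, at 283, 264 and 281 CPM with wortmannin and at 679, 678 and 669 CPM with Poria. The groups did not overlap, and the direct log2 difference was 1.38 ± 0.04 (adjusted p = 2.29e-33). WIPI1, a phosphoinositide-binding protein of the early autophagosome, was at 101, 97 and 98.8 CPM with wortmannin and at 57.9, 54.1 and 57.1 CPM with Poria (log2 −0.72 ± 0.04, adjusted p = 5.92e-20). It rose in both, by log2 1.23 with wortmannin and 0.52 between the Poria doses. NBR1, another cargo receptor, rose with wortmannin (log2 0.64) and fell by 0.21 between the Poria doses, for a direct difference of −0.76. TFEB itself differed by −0.72. It fell by 0.44 between the Poria doses and had 0.12 with wortmannin (adjusted p = 0.25).

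The promoters of CTSA, whose product is the lysosomal carboxypeptidase cathepsin A, and LAMP1 are shown because they carry the E-box CACGTG, the core of the motif that TFEB binds, here in capitals. Both windows are the 250 bases upstream of the RefSeq start on the plus strand of GRCh38.p14, at chr20:45891085-45891334 and chr13:113296989-113297238, with 2 and 5 matches.
CTSA: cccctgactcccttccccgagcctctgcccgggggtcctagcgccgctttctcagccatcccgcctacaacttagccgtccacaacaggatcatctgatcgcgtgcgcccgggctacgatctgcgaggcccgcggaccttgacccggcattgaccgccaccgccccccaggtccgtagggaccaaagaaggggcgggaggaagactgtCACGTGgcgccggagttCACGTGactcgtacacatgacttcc
LAMP1: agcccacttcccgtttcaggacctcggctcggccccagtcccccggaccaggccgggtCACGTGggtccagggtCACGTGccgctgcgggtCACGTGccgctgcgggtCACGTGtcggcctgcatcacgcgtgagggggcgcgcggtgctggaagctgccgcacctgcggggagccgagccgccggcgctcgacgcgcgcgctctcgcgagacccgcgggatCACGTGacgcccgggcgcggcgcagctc
CACGTG was present in 9 of 28 windows of lysosomal genes (32.1%), 3 of 11 of the V-ATPase (27.3%) and 2 of 33 of autophagy genes (6.06%), against 6.49% of all windows. The longer TCACGTGA, which contains it, was present in 4 of 28 lysosomal windows (14.3%) against 0.89% of all. CTSA rose with wortmannin (log2 0.47) and by 0.12 between the Poria doses (adjusted p = 0.0141), and its direct difference was −0.44.

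Cell cycle genes fell with both treatments, and fell further with wortmannin. Of 35 measured genes of mitosis and G2/M, wortmannin lowered all 35 (background 24.0%) with a median log2 change of −1.23. Between the Poria doses 34 fell (background 21.2%) with a median of −0.43. Directly, 34 of 35 were higher with Poria than with wortmannin and 0 were lower (31.7% and 28.2% of all genes). The median log2 difference was 0.76. In bulk RNA, fewer cells in a phase and less RNA per cell cannot be told apart.

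CDC20, the activator of the anaphase-promoting complex, at chr1:43358955-43363203, was at 113, 117 and 102 CPM with vehicle, at 33.8, 32.5 and 31.2 CPM with wortmannin and at 72.5, 73.7 and 73.7 CPM with Poria. The groups did not overlap, and the direct log2 difference was 1.26 ± 0.05 (adjusted p = 4.36e-26). PLK1, a kinase of mitotic entry and spindle assembly, at chr16:23677656-23690367, was at 346, 318 and 319 CPM with vehicle, at 111, 98 and 100 CPM with wortmannin and at 221, 204 and 207 CPM with Poria. It fell by 1.65 on the log2 scale with wortmannin and by 0.37 between the Poria doses, and the direct difference was 1.12 ± 0.06 (adjusted p = 2.18e-23). CCNB1, which encodes the mitotic cyclin B1, was at 44.1, 44.2 and 43.4 CPM with wortmannin and at 95.7, 99.7 and 101 CPM with Poria (log2 1.26 ± 0.06).

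Members of the mitotic group differed in how far Poria lowered them. ECT2, an exchange factor needed for cytokinesis, fell by 1.05 with wortmannin and had −0.09 between the Poria doses (95% interval −0.19 to 0.02, adjusted p = 0.176), for a direct log2 difference of 1.16. TOP2A, topoisomerase II alpha, fell by 1.40 and by 0.72, for a difference of 0.76. NUSAP1, a spindle protein, fell by 1.10 and by 0.79, for a difference of 0.23. CDC25C, the phosphatase that activates CDK1, was the member not called directly. It was at 12.1, 10.5 and 11.7 CPM with wortmannin and at 11.7, 10.3 and 11.3 CPM with Poria, with a difference of 0.05 (95% interval −0.09 to 0.19, adjusted p = 0.573).

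**Figure D4:**
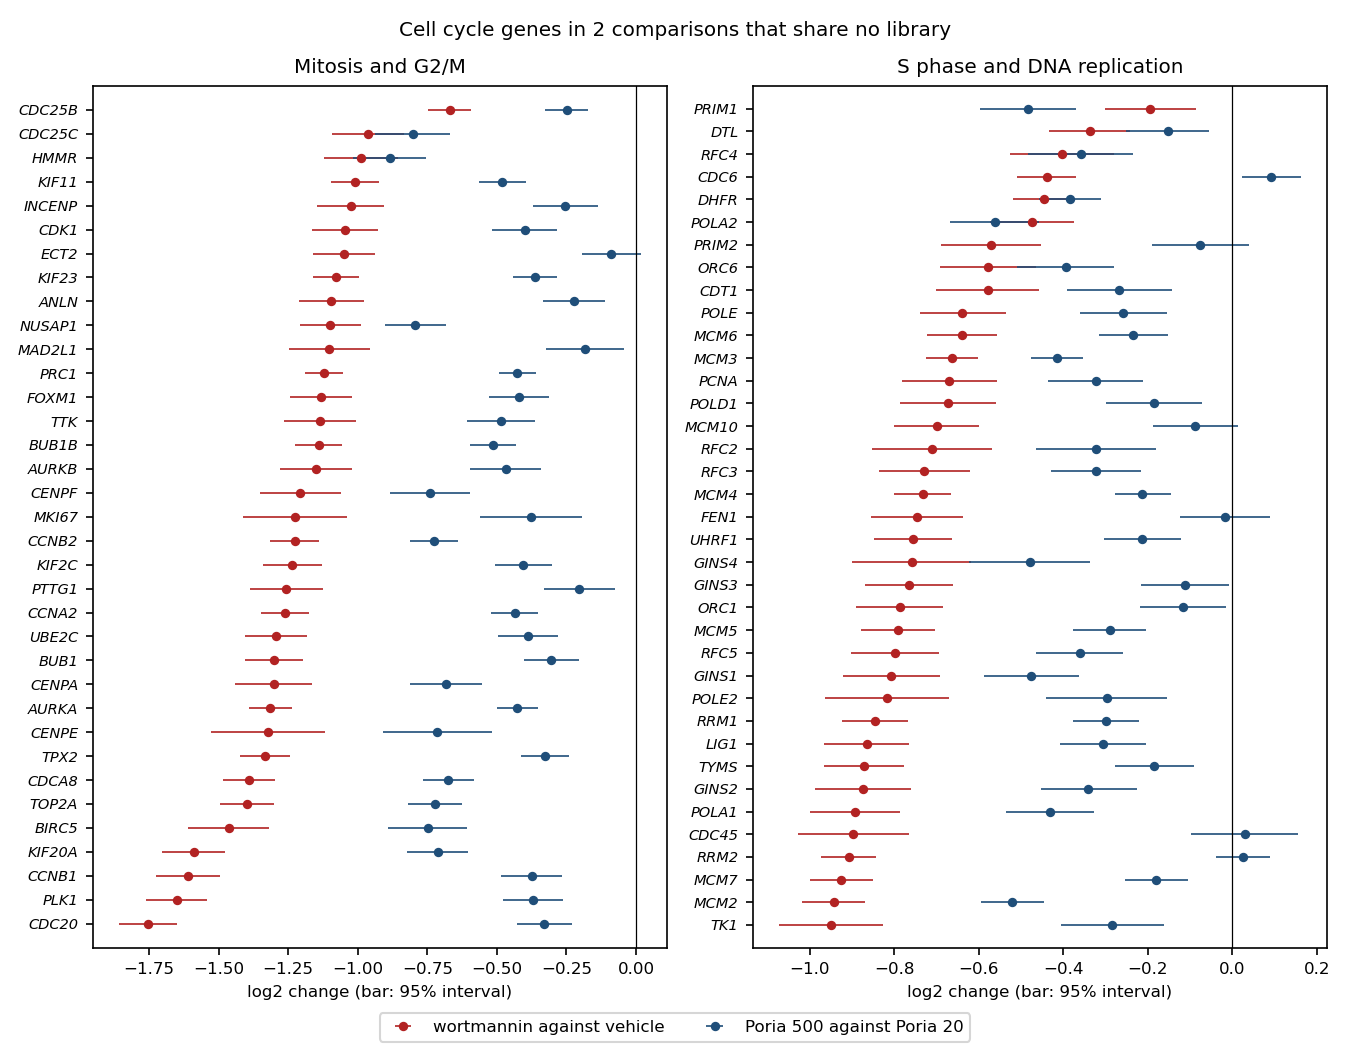
Points give the log2 change of each measured gene of mitosis and of S phase, in red for wortmannin against vehicle and in blue for Poria at 500 against 20 µg/mL, with bars for the 95% interval. Nearly all points lie to the left of 0 and the red points lie farther left, with medians of −1.23 and −0.43 for mitosis and −0.75 and −0.29 for S phase.

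S phase genes showed the same order. Wortmannin lowered all 37 measured genes of DNA replication, where 24.0% of all genes fell. Between the Poria doses 29 fell and 1, CDC6, rose (log2 0.09), against 21.2% and 22.3% of all genes. Directly, 30 were higher with Poria and 1, PRIM1, a DNA primase subunit, was lower (log2 −0.36), with a median of 0.43. The shares of all genes were 31.7% and 28.2%. RRM2, the inducible subunit of ribonucleotide reductase, was at 356, 364 and 335 CPM with vehicle, at 185, 190 and 180 CPM with wortmannin and at 336, 345 and 320 CPM with Poria. Its Poria libraries overlapped those of vehicle, with a log2 difference of 0.03 (95% interval −0.03 to 0.10, adjusted p = 0.43), and the direct difference from wortmannin was 0.94 ± 0.03 (adjusted p = 2.02e-29). CDC45 and FEN1, of the replication fork, also had Poria dose values near 0 (0.03 and −0.02, adjusted p = 0.742 and 0.82) and direct differences of 0.81 and 0.73. The helicase subunits were lowered by both treatments, MCM2 by 0.94 with wortmannin and 0.52 between the Poria doses, MCM7 by 0.93 and 0.18, with direct differences of 0.33 and 0.68. DTL and RFC4 had direct differences of 0.06 and 0.07 (adjusted p = 0.316 and 0.32).

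Among G1 regulators, 17 of 28 measured genes were higher with Poria and 5 were lower (CDKN2C, RBL2, E2F1, E2F2 and SKP2). The shares of all genes were 31.7% and 28.2%. CDKN1A, the CDK inhibitor p21, was at 125, 116 and 112 CPM with vehicle, at 93.5, 82.1 and 88 CPM with wortmannin and at 166, 145 and 146 CPM with Poria. The groups did not overlap, and wortmannin lowered CDKN1A by 0.40 whereas it rose by 0.61 between the Poria doses (direct log2 0.89 ± 0.05, adjusted p = 5.4e-21). CCND1, cyclin D1, fell by 0.34 with wortmannin and had −0.05 between the Poria doses (adjusted p = 0.415), for a direct difference of 0.34. CCND2, cyclin D2, differed by 0.96 at levels of 0.753 to 1.72 CPM. E2F8, a repressor of the E2F program, fell by 0.75 and by 0.45 and differed directly by −0.01 (95% interval −0.15 to 0.12, adjusted p = 0.898).

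The promoters of PLK1 and CDC20 are shown because they carry the cell cycle homology region, searched as TTTGAA and TTCGAA on both strands and printed in capitals. The windows are the 250 bases upstream of the RefSeq starts on the plus strand of GRCh38.p14, at chr16:23678639-23678888 and chr1:43358731-43358980. The match of PLK1 begins 29 bases before its RefSeq start, and those of CDC20 begin 178 and 65 bases before theirs. The gene coordinates given above are from GENCODE v29 and begin before these RefSeq starts. The window of PLK1 therefore lies within its gene as given, and that of CDC20 reaches into its gene.
PLK1: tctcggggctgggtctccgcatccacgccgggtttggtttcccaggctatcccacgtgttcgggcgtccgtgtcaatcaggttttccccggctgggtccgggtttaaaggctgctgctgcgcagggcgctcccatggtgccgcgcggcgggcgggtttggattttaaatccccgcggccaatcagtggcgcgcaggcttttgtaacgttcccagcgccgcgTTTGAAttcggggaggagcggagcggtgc
CDC20: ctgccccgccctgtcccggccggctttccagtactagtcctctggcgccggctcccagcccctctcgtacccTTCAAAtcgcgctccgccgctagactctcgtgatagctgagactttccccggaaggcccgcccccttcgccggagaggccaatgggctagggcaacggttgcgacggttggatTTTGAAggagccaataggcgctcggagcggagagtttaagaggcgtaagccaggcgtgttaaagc
The motif was present in 16 of 29 windows of mitotic genes (55.2%) and in 2 of 33 windows of S phase genes (6.06%), against 14.6% of all windows.

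The antioxidant targets of NRF2, the factor released when KEAP1 is modified or bound by p62, were a group in which Poria and wortmannin parted. Of 27 measured genes, 23 were higher with Poria than with wortmannin (31.7% of all genes), with a median log2 difference of 0.74. Between the Poria doses 23 rose (22.3% of all genes), whereas wortmannin raised 8 and lowered 11 (22.4% and 24.0% of all genes). NQO1, a quinone reductase at chr16:69706996-69726951, was at 431, 419 and 392 CPM with vehicle, at 320, 310 and 321 CPM with wortmannin and at 831, 867 and 853 CPM with Poria. The groups did not overlap (direct log2 1.51 ± 0.04, adjusted p = 4.22e-32). GCLM, the modifier subunit of the enzyme that limits glutathione synthesis, was at 35.2, 34.3 and 37.5 CPM with wortmannin and at 82, 88.9 and 83.1 CPM with Poria (log2 1.34 ± 0.05, adjusted p = 9.46e-28).

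AKR1B10, an aldo-keto reductase at chr7:134527592-134541408, was the member with the largest direct difference, at 47.1, 49.6 and 50.8 CPM with wortmannin and 338, 356 and 329 CPM with Poria (7.39-fold, log2 2.88 ± 0.06, adjusted p = 1.08e-38). Its value with wortmannin against vehicle was 0.11 (adjusted p = 0.148). AKR1C1 differed by 1.91. Reads shared among such paralogs were divided by the counting tool, so the split between AKR1 genes is uncertain. HMOX1, the haem oxygenase, was at 76, 75.2 and 73.1 CPM with vehicle, at 50.5, 47.5 and 51.3 CPM with wortmannin and at 77.5, 76.7 and 77.3 CPM with Poria (direct log2 0.72 ± 0.05). Most of this difference was a fall with wortmannin (log2 −0.57), with 0.26 between the Poria doses. OSGIN1, an oxidative stress-induced growth inhibitor, rose with both treatments, by 0.61 and 0.91, and differed directly by 0.02 (adjusted p = 0.731).

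The promoter of GCLM is shown as an NRF2 target with the antioxidant response core TGACNNNGC, here in capitals as its reverse complement, 34 bases before the start. The window is the 250 bases upstream of the RefSeq start on the minus strand of GRCh38.p14 (chr1:93909431-93909680).
GCLM: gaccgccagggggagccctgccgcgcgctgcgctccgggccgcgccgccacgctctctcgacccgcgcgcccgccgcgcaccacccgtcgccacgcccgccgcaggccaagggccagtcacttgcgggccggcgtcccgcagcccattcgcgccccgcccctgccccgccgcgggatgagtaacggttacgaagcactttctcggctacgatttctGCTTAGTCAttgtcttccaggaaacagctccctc
The core was present on either strand in 4 of 19 windows of the list (21.1%), against 11.0% of all windows.

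**Figure D5:**
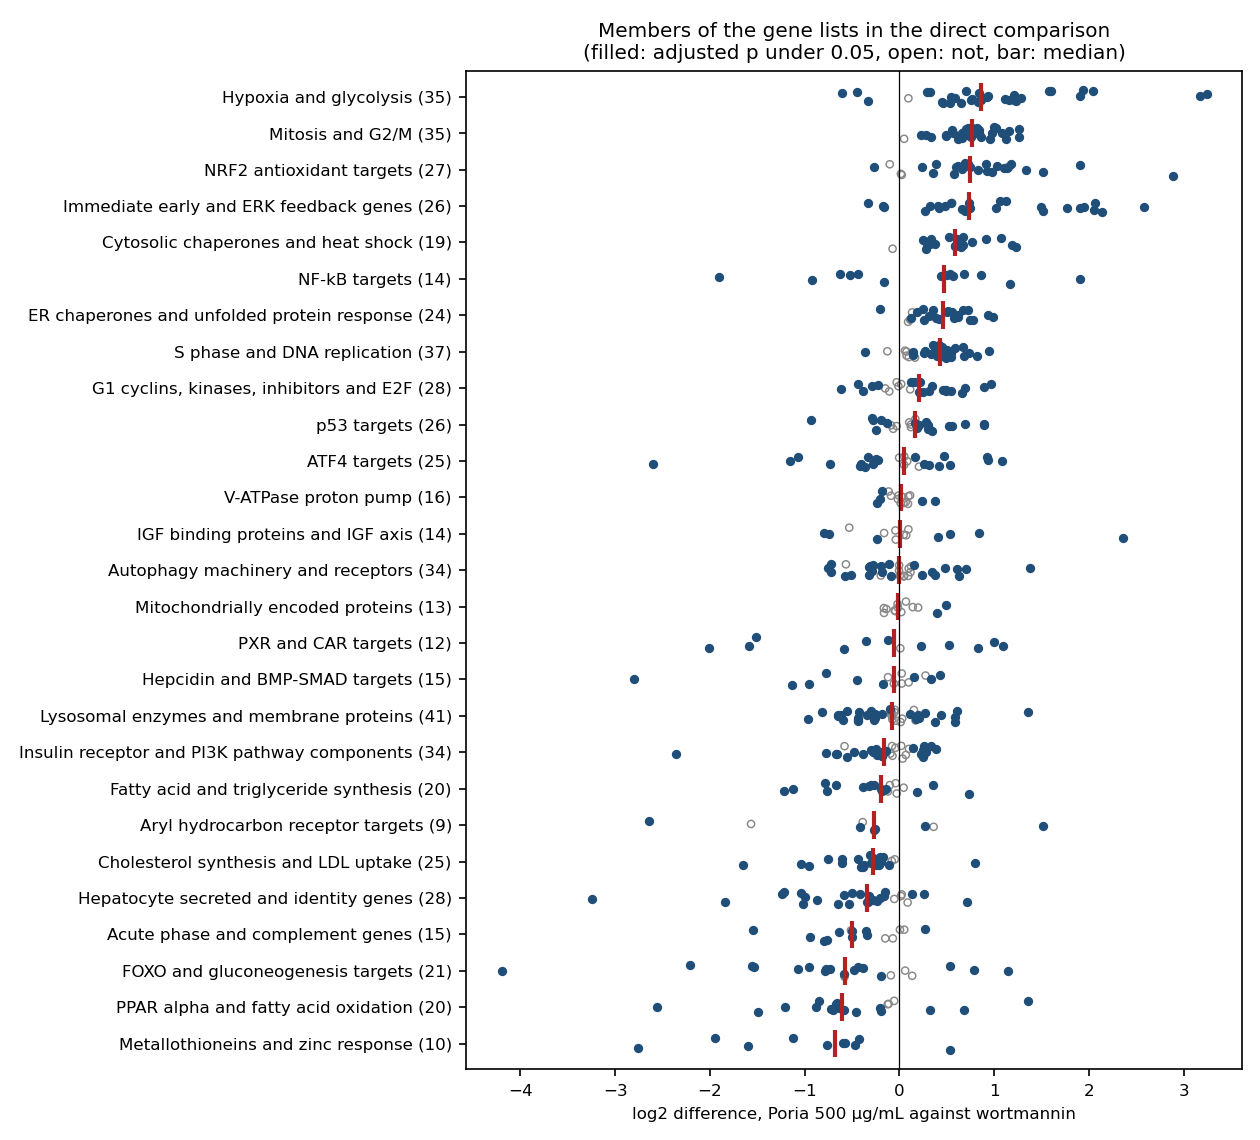
Each row is 1 of 27 gene lists and each point a measured member, placed by its log2 difference of Poria at 500 µg/mL minus wortmannin, filled where the adjusted p was below 0.05 and open otherwise, with a bar at the median. Mitosis, NRF2, hypoxia and glycolysis, immediate early and chaperone lists lie mostly to the right, and FOXO, PPAR alpha, cholesterol, metallothionein and acute phase lists mostly to the left.

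Hypoxia and glycolysis genes were higher with Poria in 31 of 35 measured genes and lower in 3 (PFKL, PFKM and P4HA1). The shares of all genes were 31.7% and 28.2%, and the median log2 difference of the list was 0.86. Between the Poria doses 29 rose and 1, PFKL, fell (22.3% and 21.2% of all genes). Wortmannin raised 7 and lowered 13 (22.4% and 24.0% of all genes). PFKFB3, which makes the main activator of phosphofructokinase, was at 2.17, 1.4 and 2.08 CPM with wortmannin and at 11.4, 19.6 and 19.2 CPM with Poria (log2 3.24 ± 0.35, adjusted p = 2.38e-11). CA9, a carbonic anhydrase induced by HIF-1, was at 0.805, 0.856 and 0.964 CPM with wortmannin and at 6.31, 8.5 and 7.57 CPM with Poria (log2 3.17 ± 0.25, adjusted p = 1.09e-15). Neither gene had overlapping groups. CA9 fell by 1.69 with wortmannin and rose by 1.28 between the Poria doses, while PFKFB3 had −0.43 with wortmannin (adjusted p = 0.478).

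ADM, the vasodilator peptide adrenomedullin, and HK1, a hexokinase, differed by log2 2.04 and 1.94. SLC2A1, the glucose transporter GLUT1, rose with both, by 0.69 with wortmannin and 0.85 between the Poria doses. It was at 399, 358 and 406 CPM with wortmannin and at 418, 473 and 447 CPM with Poria (log2 0.29 ± 0.06, adjusted p = 3.58e-05). ALDOC, an aldolase, also rose with both and differed by 0.09 (95% interval −0.05 to 0.23, adjusted p = 0.245).

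Immediate early genes and feedback genes of ERK signalling were higher with Poria in 22 of 26 measured genes and lower in FOSL2, ETV4 and ETV5 (median log2 0.74). The shares of all genes were 31.7% and 28.2%. EGR1, a zinc finger factor, was at 19.7, 21.2 and 21 CPM with vehicle, at 30.4, 30.8 and 28.5 CPM with wortmannin and at 121, 113 and 118 CPM with Poria. It rose with both treatments, and the direct log2 difference was 2.06 ± 0.07 (adjusted p = 4.64e-29). FOS, an AP-1 subunit, was at 1.49, 1.34 and 0.81 CPM with wortmannin and at 6.06, 6.91 and 7.57 CPM with Poria (log2 2.58 ± 0.19, adjusted p = 7.7e-17). FOSL1, another AP-1 subunit, fell by 0.92 with wortmannin and rose by 1.29 between the Poria doses, for a difference of 2.06.

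Most chaperones were higher with Poria, both in the cytosol (18 of 19 measured genes, 0 lower, median log2 0.59) and in the ER (20 of 24, with CRELD1 lower, median 0.46). Of all genes, 31.7% were higher and 28.2% lower with Poria. Wortmannin lowered 12 of each list against vehicle, where 24.0% of all genes fell. It raised 1 cytosolic and 6 ER genes (22.4% of all genes). Between the Poria doses 10 cytosolic and 15 ER genes rose and 2 of each list fell, against 22.3% and 21.2% of all genes. HSPA8, the constitutive HSP70, was at 948, 898 and 891 CPM with wortmannin and at 1740, 2030 and 2080 CPM with Poria (log2 1.19 ± 0.09, adjusted p = 1.54e-16). Its rise of 0.34 between the Poria doses was lost without replicate 1 of the 20 µg/mL dose (adjusted p = 0.061). HSPA5, the ER chaperone BiP, was at 817, 816 and 862 CPM with wortmannin and at 1320, 1330 and 1360 CPM with Poria (log2 0.78 ± 0.04, adjusted p = 3.81e-24). CHORDC1 and HSPH1, which work with HSP90 and HSP70, differed by 1.07 and 0.91, and the ER factors MANF and SDF2L1 by 0.94 and 0.98. HSPB1, the small heat shock protein, had a difference of −0.07 (95% interval −0.21 to 0.06, adjusted p = 0.366). HERPUD1, an ER degradation factor, rose with both treatments and differed by 0.09 (adjusted p = 0.325).

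Many lipid genes were lower with Poria. Of 25 measured genes of cholesterol synthesis and LDL uptake, 22 were lower (median log2 −0.28), against 28.2% of all genes. Wortmannin raised 13 and lowered 4 (MVK, SQLE, HSD17B7 and EBP), against 22.4% and 24.0% of all genes. Between the Poria doses 20 fell (21.2% of all genes). TM7SF2, a sterol reductase, was at 126, 129 and 132 CPM with wortmannin and at 38.3, 39.6 and 38.1 CPM with Poria (log2 −1.65 ± 0.06, adjusted p = 1.05e-29). LSS, lanosterol synthase, and ERG28, a scaffold of the pathway, differed by −1.04 and −0.95.

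Of 20 genes of fatty acid and triglyceride synthesis, 12 were lower with Poria and 3 higher (AGPAT2, LPIN2 and ACSL3). The shares of all genes were 28.2% and 31.7%. MLXIPL, the glucose-sensing factor ChREBP, and GPAM, the first enzyme of triglyceride synthesis, differed by log2 −1.22 and −1.12. DGAT1, the last enzyme of triglyceride synthesis, fell with both treatments by like amounts (0.87 with wortmannin, 0.80 between the Poria doses). It was at 42.5, 39.7 and 42.6 CPM with wortmannin and at 37.9, 37.5 and 39.4 CPM with Poria, with a fitted difference of −0.03 (95% interval −0.15 to 0.09, adjusted p = 0.698). The fit scales libraries by TMM factors, so its values can depart slightly from ratios of CPM.

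Targets of PPAR alpha, the factor that raises fatty acid oxidation in fasting, rose with wortmannin in 17 of 20 measured genes and fell in 0. Of all genes, 22.4% rose and 24.0% fell with wortmannin. Between the Poria doses 12 of the 20 fell and 4 rose (CPT1A, ACADVL, PLIN2 and VNN1), against 21.2% and 22.3% of all genes. Directly, 14 were lower and 3 higher with Poria (ACADVL, PLIN2 and VNN1), against 28.2% and 31.7% of all genes. ACOT1, an acyl-CoA thioesterase, was at 40.9, 39.2 and 41.8 CPM with wortmannin and at 13, 14.7 and 13 CPM with Poria (log2 −1.49 ± 0.10, adjusted p = 2.46e-18). CREB3L3, a fasting-induced liver factor, differed by −1.20. PLIN2, the coat protein of lipid droplets, was at 251, 259 and 278 CPM with wortmannin and at 544, 680 and 665 CPM with Poria (log2 1.35 ± 0.11, adjusted p = 8.29e-15).

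Hepatocyte genes were lower with Poria in 21 of 28 measured genes and higher in 3, which encode the liver factors HNF4A, FOXA2 and FOXA3 (median log2 −0.34). The shares of all genes were 28.2% and 31.7%. FGA, the fibrinogen alpha chain, was at 3030, 2840 and 2790 CPM with vehicle, at 3920, 3770 and 3890 CPM with wortmannin and at 1550, 1560 and 1550 CPM with Poria. Its 3 groups were fully apart, with vehicle in the middle (direct log2 −1.22 ± 0.04, adjusted p = 3.54e-32). TTR, the thyroxine carrier transthyretin, rose with both, by 1.56 with wortmannin and 0.26 between the Poria doses. It was at 498, 471 and 511 CPM with wortmannin and at 195, 203 and 192 CPM with Poria (log2 −1.24 ± 0.06, adjusted p = 1.52e-22).

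GNMT, a methyltransferase of S-adenosylmethionine turnover, was at 14.5, 14.1 and 14.4 CPM with wortmannin and at 1.23, 1.52 and 1.53 CPM with Poria (log2 −3.25 ± 0.14, adjusted p = 7.67e-26). CYP7A1, which limits the making of bile acids, differed by −1.84, and ALB by −0.34. AFP, the fetal albumin, had a difference of 0.02 (adjusted p = 0.771). The acute phase and complement list had 9 of 15 genes lower and 1, SERPINA3, higher, against 28.2% and 31.7% of all genes. F7, coagulation factor VII, differed by −1.55, CFB, complement factor B, by −0.94, and HP, haptoglobin, by −0.77. ORM1, an orosomucoid, had 0.05 (adjusted p = 0.431).

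Metallothioneins, which bind zinc and copper, were lower with Poria in 9 of 10 measured genes of the zinc list, and the sensor gene MTF1 was higher (median log2 −0.68). MT1F was at 31.8, 24.9 and 30 CPM with wortmannin and at 4.44, 3.91 and 3.5 CPM with Poria (log2 −2.76 ± 0.14, adjusted p = 8e-23). It fell with both, by 0.66 with wortmannin and by 2.32 between the Poria doses. MT1G and MT2A differed by −1.95 and −0.42. Between the Poria doses 7 of the 10 genes fell and 2 rose (21.2% and 22.3% of all genes), and MT2A had 0.70. MT1 genes are near-identical, so their split is uncertain. HAMP, the iron hormone hepcidin, also fell with both, by 0.83 and by 3.01. It was at 4.11, 4.18 and 3.55 CPM with wortmannin and at 0.686, 0.599 and 0.263 CPM with Poria (log2 −2.80 ± 0.25, adjusted p = 8.44e-14). Of 15 genes of the hepcidin and BMP list, 6 were lower with Poria, among them TFR2, a sensor of transferrin iron (−1.14), SMAD7, a BMP and TGF-beta antagonist (−0.77), and TMPRSS6, which cleaves the hepcidin co-receptor (−0.95). ACVR1, SMAD5 and ID3 were higher. For this list and the zinc list, the shares of all genes were 28.2% lower and 31.7% higher with Poria.

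The remaining lists were mixed, and their counts stand against 31.7% of all genes higher with Poria and 28.2% lower. ATF4 targets had 9 genes higher and 11 lower of 25. GDF15, a stress cytokine, was higher by log2 1.08, while JDP2, an AP-1 repressor, was lower by log2 −1.16. NUPR1, a stress-induced nuclear protein, was at 35.8, 35.1 and 32.1 CPM with wortmannin and at 5.59, 4.99 and 5.3 CPM with Poria (log2 −2.60 ± 0.10, adjusted p = 9.87e-27). Of 26 p53 targets, 13 were higher and 6 lower. TIGAR, a fructose bisphosphatase, and PLK3, a stress kinase, differed by 0.70 and 0.89, and TP53INP1, an autophagy and stress gene, by −0.93. NF-kB targets had 8 higher and 6 lower of 14. IER3, an early response gene, and CCL20, a chemokine, differed by 1.90 and 1.16, and TNFAIP2 and TRAF1 by −1.91 and −0.92 at low levels of 0.2 to 2.33 CPM.

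Among 12 targets of the xenobiotic receptors PXR and CAR, 6 were lower with Poria, including CYP3A7 (log2 −2.01) and SULT2A1, a steroid sulfotransferase (−1.59). ABCB1, ABCC2, UGT1A1, UGT1A6 and NR1I2 were higher, although UGT1A6 (1.09, adjusted p = 0.0365) lost its call without Poria replicate 1 or 2 or wortmannin replicate 1 or 2 (adjusted p = 0.0547 to 0.246). CYP3A and UGT1A genes share sequence, so their split is uncertain. Of 9 aryl hydrocarbon receptor targets, CYP1A1 and NQO1 were higher and CYP1B1, TIPARP, AHR and ARNT lower. CYP1A1, a cytochrome P450, was at 21.8, 20.6 and 23 CPM with wortmannin and at 28.8, 22.1 and 22.8 CPM with Poria. These groups overlapped, and the log2 difference of 0.27 was lost without Poria replicate 1 (0.13, adjusted p = 0.16). CYP1B1 was at or near the 3-count level in all these libraries, and its call was lost without either wortmannin replicate 1 or 2 or Poria replicate 2 or 3. Of 13 mitochondrially encoded proteins, MT-ND1 (0.49) and MT-ND2 (0.40) were called higher with Poria. Without wortmannin replicate 3 neither was called (0.31 and 0.28, adjusted p = 0.126 and 0.179), and without Poria replicate 1 the adjusted p was 0.0575 and 0.0536. The call for MT-ND2 was also lost without Poria replicate 3 or wortmannin replicate 1 (adjusted p = 0.144 and 0.0673).

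Over all genes, those farthest above wortmannin with at least 5 CPM in a group and no overlap included LINC03033 (log2 3.60), PFKFB3, CA9, PLCH2 (3.12), PPP2R2C (3.11), AKR1B10, PHLDA2 (2.87), FOS and PHLDA1-AS1 (2.49). PHLDA1-AS1 is antisense to its neighbour and one of its wortmannin libraries is at 0, so its value is uncertain. The farthest below included G6PC1, GNMT, UICLM (−3.0), SLC38A4 (−2.78), MT1F, MMP11 (−2.70), NUPR1, EXOC3L4 (−2.44) and ACSM3 (−2.40). DKK1, a secreted WNT inhibitor, fell with both, by 2.26 with wortmannin and by 0.38 between the Poria doses. It was at 132, 130 and 117 CPM with vehicle, at 26.1, 26.5 and 25.2 CPM with wortmannin and at 81.2, 78.5 and 74 CPM with Poria (direct log2 1.68 ± 0.08, adjusted p = 1.85e-23).

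Among genes with at least 5 CPM in a group, 6 were taken from each side of the opposing movers by the smaller of their changes. GNMT, SLC38A4, an amino acid transporter, MMP11, a matrix protease, NUPR1, ACSM3, a medium-chain acyl-CoA synthetase, and LDHD, a D-lactate dehydrogenase, rose with wortmannin by log2 1.11 to 1.26 and fell between the Poria doses, by 1.01 for LDHD to 1.81 for GNMT. MPP3, AREG, TNS4, FOSL1, CA9 and LINC03033 fell with wortmannin and rose between the Poria doses. AREG, the EGF receptor ligand amphiregulin, was at 2.45, 3.6 and 3.48 CPM with vehicle, at 1.57, 1.88 and 1.85 CPM with wortmannin and at 6.03, 6.83 and 6 CPM with Poria (direct log2 1.91 ± 0.15, adjusted p = 2.18e-15). TNS4, a tensin of focal adhesions, differed by 1.98. The fall of LINC03033 with wortmannin was lost without vehicle replicate 3 (adjusted p = 0.081).

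The strongest shared rises beside the IGF binding proteins were IL6R, TRPV2, SLC16A6, FILIP1L and TNS1. IL6R, the interleukin-6 receptor, was at 30, 30.8 and 31.2 CPM with vehicle, at 96.8, 103 and 103 CPM with wortmannin and at 69.6, 65.8 and 64.6 CPM with Poria. All 3 groups were apart (direct log2 −0.51 ± 0.05, adjusted p = 8.5e-13). SLC16A6, a monocarboxylate transporter, was at 25.6, 27.1 and 25.5 CPM with wortmannin and at 23.9, 25.5 and 25.7 CPM with Poria, against 10.8, 11.1 and 9.94 CPM with vehicle. The treated groups overlapped, and the direct difference was 0.03 (95% interval −0.10 to 0.16, adjusted p = 0.693). TRPV2, a cation channel, had −0.20 (adjusted p = 0.0232), a call lost without Poria replicate 1 or wortmannin replicate 1 or 3 (adjusted p = 0.132, 0.0764 and 0.0766).

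The strongest shared falls were ALDH8A1, DGKK, FAM72C, GSTA2, CCDC34, PSRC1, TDGF1 and SLC6A12. GSTA2, a glutathione transferase whose reads are divided with GSTA1, was at 17.9, 16.6 and 14 CPM with vehicle, at 8.13, 7.02 and 7.75 CPM with wortmannin and at 8.08, 6.43 and 7.75 CPM with Poria. The treated libraries overlapped, with a difference of 0.05 (95% interval −0.15 to 0.26, adjusted p = 0.675). SLC6A12, a betaine transporter, was at 4.27, 4.18 and 4.24 CPM with wortmannin and at 5.38, 5.07 and 4.99 CPM with Poria, against 15.5, 11.9 and 12.2 CPM with vehicle (direct log2 0.38 ± 0.11, adjusted p = 0.00358). The 10 genes that met the rule for matched size were IGFBP1, SLC16A6, TRPV2, GSTA2, DGKK, PTPRH, ZMYND15, FGFR2, LGALS3 and 1 gene without a symbol. The direct comparison still called 4 of them, DGKK (log2 −0.29) and TRPV2 lower with Poria, and LGALS3 (0.31) and the gene without a symbol (0.24) higher. PTPRH, a receptor tyrosine phosphatase, averaged 13.4 CPM with vehicle, 30.9 CPM with wortmannin and 28.8 CPM with Poria, with a direct difference of −0.01 (95% interval −0.17 to 0.14, adjusted p = 0.89).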

How the data were processed

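Per the labels' protocols, a directional mRNA kit was used, with 100-base reads from both ends on an MGI sequencer. The submitters' processing notes name FastQC 0.11.9, Trim Galore 0.6.5, STAR 2.7.3a, RSEM 1.3.3 and hg38. The deposited table holds the authors' RSEM expected counts for 60675 genes in 270 columns, of which 60 were used and 210 were not. The annotation release is not given in the sources used here. RSEM divides reads shared by similar sequences, which ties the counts of near-identical genes together. Of the values above 0, 76.1% were whole (tolerance 1e-09), and all were rounded here. Symbols (42019 genes) and coordinates came from a gene name table and GENCODE v29 on GRCh38, and genes without a symbol held 0.734% of the counts.

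The counts of all 60 libraries (20 groups of 3) were fitted with edgeR 4.0.16 under R 4.3.3, beside limma 3.58.1. Each group had its own mean. The fit used TMM normalization (factors 0.926 to 1.03), filterByExpr (minimum count 10, minimum total 15), glmQLFit and glmQLFTest, and Benjamini-Hochberg adjustment over 16093 genes at 0.05. Fold changes used a prior count of 0.125. SE and 95% intervals come from the same fit, and intervals are not adjusted for the number of genes. CPM were computed on library totals. The 4 groups of interest had totals of 22.851 to 32.059 M counts. The variance between replicates of a group was 4.37 to 10.1 times the counting variance (chi-square per degree of freedom). None was therefore counted as a repeat of another.

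The members and the 29 gene lists were chosen with earlier results of these data known, and lists are described by counts without a test. Named genes were the 10 highest and 10 lowest directly (at least 5 CPM in a group, no overlap), the 8 largest shared rises and 8 largest shared falls, 6 opposing genes on each side, and in each list the members with the largest and the smallest direct differences. IGFBP4, STC2, TRIB1, CITED2, BNIP3, CTSC, PPT1, NAGLU, MANBA, CLN3, CTSA, ATP6V1F, ATG101, ATG16L1, CDC6, PRIM1, CDKN2C, RBL2, E2F1, E2F2, SKP2, PFKL, PFKM, P4HA1, FOSL2, CRELD1, MVK, SQLE, HSD17B7, EBP, AGPAT2, LPIN2, ACSL3, CPT1A, ACADVL, VNN1, HNF4A, FOXA2, FOXA3, SERPINA3, MTF1, ACVR1, SMAD5, ID3, ABCB1, ABCC2, UGT1A1, NR1I2, PTPRH, ZMYND15, FGFR2 and LGALS3 were named after their values were seen. A few genes that these rules name are not reported here. Promoter windows came from RefSeq (GRCh38.p14).

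In simulated data for the direct comparison (16021 genes), 100 genes were changed 1.5-fold and 100 genes 2-fold, all averaging above 1 CPM. The other genes were left equal. The fit called 86 and 97 of the changed genes, with 4.69% false calls. In the data 60% of genes were called, so these rates may not hold there. Alternatives were DESeq2 1.42.0 size factors, its Wald test, a mean of at least 1 CPM, no filter, only the 12 libraries, removal of mitochondrially encoded genes, a block on the replicate number, and each library left out in turn.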

Additional observations from a re-analysis of the deposited data

How the results depend on the processing

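The direct comparison called 9654 genes, and 9036 to 9124 when a library was left out. Leaving out a library gave 6741 to 7040 genes for wortmannin against vehicle, 6888 to 7168 for Poria against vehicle and 6081 to 6513 between the Poria doses. Shared rises then numbered 919 to 1012, shared falls 962 to 1048, and opposing genes 845 to 918 (up with wortmannin) and 858 to 943 (down with wortmannin). Genes at least 2-fold the same way numbered 39 to 56, and those of matched size 8 to 13. The count of 48 genes at least 2-fold the same way became 20 with a mean of at least 1 CPM, where fewer genes were tested. Of 828 results for named genes, none reversed under the alternatives run, 61 lost the call and 41 gained it under at least 1 of them.

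The replicate numbers were not taken to pair the libraries, since in none of the 4 comparisons were all 3 correlations of same-numbered deviations above 0.1. They were 0.208, 0.17 and 0.035 directly, 0.237, 0.175 and −0.077 for wortmannin and 0.052, 0.258 and −0.067 for Poria against vehicle, and 0.188, −0.317 and 0.177 between the Poria doses. Libraries with different numbers had −0.203 to 0.019 in the direct comparison, below all of its same-numbered values. The other comparisons did not show this order. With the replicate number as a block 9710 genes were called directly and 7073 between the Poria doses. Against vehicle, 7521 were called for wortmannin and 7775 for Poria. At 3 counts, 0.0936 to 0.1313 CPM, genes such as CYP1B1 are at the limit of depth.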

Other observations

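Replicate 1 of the Poria groups was often the lowest library for some gene lists. Over all 16093 genes tested, replicate 1 was the lowest of its 3 libraries in 31.8% with vehicle, 32.0% with wortmannin, 35.2% with Poria at 20 µg/mL and 37.2% with Poria at 500 µg/mL. Of 35 hypoxia and glycolysis genes it was the lowest in 17 with vehicle (48.6%), in 14 with wortmannin (40%), in 31 with Poria at 20 µg/mL (88.6%) and in 28 with Poria at 500 µg/mL (80.0%). It was the lowest in both Poria groups for 25 of these 35 genes (71.4%), 5 of 10 genes of the metallothionein and zinc list (50.0%), 11 of 24 ER chaperones (45.8%), 8 of 19 cytosolic chaperones (42.1%) and 8 of 20 genes of PPAR alpha and fatty acid oxidation (40%), against 15.1% of all genes. Some lists were below that share, among them p53 targets with 1 of 26 (3.85%) and aryl hydrocarbon receptor targets and mitochondrially encoded genes with 0. PFKFB3, the kinase that feeds glycolysis, was at 3.13 CPM in replicate 1 of the 20 µg/mL dose and at 9.64 and 7.76 CPM in the other two, and at 11.4 CPM in replicate 1 of the 500 µg/mL dose and at 19.6 and 19.2 CPM in the other two. The pattern was seen after the data were examined and was not tested.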
